A study of Homo sapiens with 4 samples.

Results

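Metallothioneins and the genes that work with them in zinc homeostasis were followed in the human melanoma line MelJuSo, derived from skin, on Illumina expression beadchips. The group holds 10 listed genes: the metallothioneins MT1A, MT1E, MT1F, MT1G, MT1H, MT1M, MT1X and MT2A, the transcription factor gene MTF1 and the zinc exporter gene SLC30A1. Probes were chosen by the gene symbol of the platform annotation, which gave 12 probes for 9 of the 10 genes, out of 18665 named genes in all. MT1A had no probe of that symbol and was not analysed here. The series has 4 arrays, 1 per group: untreated, aclarubicin (10 µM), doxorubicin (9 µM), and a drug pair of etoposide and aclarubicin (10 µM each). Drugs were removed by washing after 2 h and RNA was collected 1 day after that, while no timing is stated for the untreated culture. All groups are the same cell line, and no group received etoposide alone.

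Metallothioneins are small cysteine-rich proteins that bind zinc and copper and take up excess metal in the cytoplasm. MTF1 is a zinc-finger transcription factor that senses free zinc and binds metal response elements in the promoters of metallothionein genes and of SLC30A1, whose product moves zinc out across the plasma membrane. Metallothioneins and SLC30A1 are therefore the textbook pair of zinc-induced genes, although metallothionein genes also answer to copper, cadmium, glucocorticoids and oxidative stress.

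The promoters are shown first because the results turn on MT2A, MT1X and SLC30A1, genes described as targets of one factor that differed in opposite directions after doxorubicin. All 8 listed metallothionein genes lie in a cluster on chromosome 16 (GRCh38.p14), from the start of MT2A at 56608584 to the end of MT1X at 56684196, whereas MTF1 and SLC30A1 lie on chromosome 1. RefSeq promoter sequences (GRCh38.p14) were matched for 5 of the 10 genes, and the 250 bases before the start are given 5′ to 3′ on the gene's strand. Capitals mark the core of the metal response element, searched on both strands as TGCACNC or TGCGCNC.
MT2A, chr16:56608334-56608583, plus strand: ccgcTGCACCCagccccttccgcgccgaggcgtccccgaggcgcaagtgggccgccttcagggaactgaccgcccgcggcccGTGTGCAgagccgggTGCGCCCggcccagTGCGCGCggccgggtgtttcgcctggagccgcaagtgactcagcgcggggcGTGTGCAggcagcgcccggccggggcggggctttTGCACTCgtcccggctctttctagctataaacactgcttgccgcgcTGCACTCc
MT1X, chr16:56682220-56682469, plus strand: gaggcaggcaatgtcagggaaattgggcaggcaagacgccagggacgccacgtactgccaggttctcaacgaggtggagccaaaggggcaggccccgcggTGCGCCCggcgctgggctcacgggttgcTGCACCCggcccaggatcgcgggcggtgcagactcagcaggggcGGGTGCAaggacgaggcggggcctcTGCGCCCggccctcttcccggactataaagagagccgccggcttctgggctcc
SLC30A1, chr1:211579162-211579411, minus strand: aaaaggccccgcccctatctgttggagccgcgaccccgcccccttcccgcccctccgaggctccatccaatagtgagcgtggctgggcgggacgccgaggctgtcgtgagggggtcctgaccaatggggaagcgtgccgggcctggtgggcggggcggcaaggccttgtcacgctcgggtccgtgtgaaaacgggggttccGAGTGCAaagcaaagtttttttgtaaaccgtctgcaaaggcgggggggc
The core occurred 7 times before MT2A, 4 times before MT1X and 8 times before MT1H. It occurred 1 time before SLC30A1, 43 to 49 bases from the start on the opposite strand, and 0 times before MTF1. Of 35116 promoter windows of this length, 24.8% held the core at least 1 time, 0.370% at least 4 times and 0.0313% at least 7 times. No core overlapped another or the other motifs searched. The AP-1 element TGACTCA was found before MT2A, 98 to 104 bases from the start, and before 0 of the other 4 genes, against 4.20% of all windows; TATAAA was found before MT2A and MT1X, against 10.7%. These matches describe the letters in the windows and do not show that a factor was bound.

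A probe counted as detected at a detection p-value under 0.01. By that rule 7 of the 12 probes, from 6 genes, were detected on at least 1 array: those of MT2A, MT1X, MT1G, MTF1 and SLC30A1, and 1 of the 2 MT1E probes. MT1F, MT1H and MT1M were detected on no array, with signals between 42.6 and 61.7, and get no fold. Since each group is 1 array without replicates, no p-value is given, 2-fold serves as the threshold, and every difference compares arrays. The error available is technical: over 1066 genes with exactly 2 probes detected on all arrays, the disagreement between probes had an SD of 0.45 log2 for aclarubicin against untreated, 0.32 for doxorubicin and 0.50 for the drug pair. Metallothionein transcripts are close paralogs and the probe sequences were not used here, so part of a signal could come from a sister gene.

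The arrays differed in breadth. Between 9128 probes, after the drug pair, and 14773, after doxorubicin, were detected, with 13521 in untreated cells and 9864 after aclarubicin. Levels are log2 values after background correction and quantile normalization, which gives all arrays the same distribution. Without scaling, the median of 10077 genes differed from untreated by -0.66 log2 with aclarubicin, 0.06 with doxorubicin and -0.92 with the drug pair. Under median scaling over probes detected on all arrays, an option added once the data had been seen, these medians were 0.21, 0.05 and 0.30. Of genes at least 2-fold away from untreated, 49.8% were higher after aclarubicin and 52.9% after the drug pair, but 6.28% and 5.41% without scaling, 5.68% and 5.59% under median scaling over all probes, and 38.5% and 40.7% under cyclic loess. For doxorubicin the share was 53.1%, and 60.5% without scaling.

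**Figure D1:**
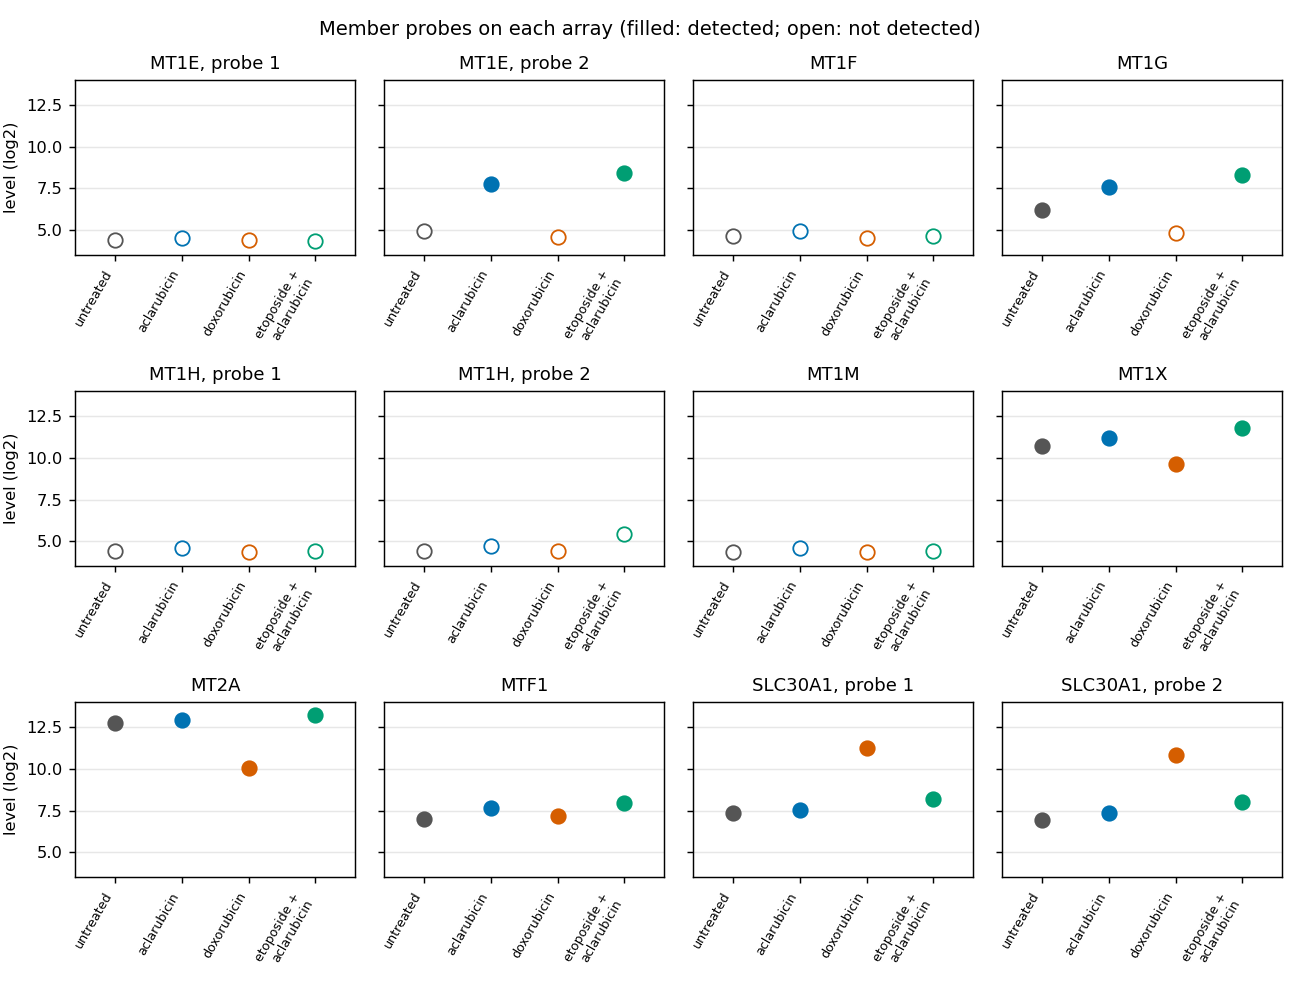
Normalized level (log2, vertical axis) of each of the 12 member probes on the 4 arrays (horizontal axis), filled where the probe was detected and open where it was not. Doxorubicin gave the lowest MT2A and MT1X levels (10.05 and 9.63) and the highest SLC30A1 levels (11.25 and 10.84 for its 2 probes). Levels of different probes are not comparable.

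MT2A, the most widely expressed human metallothionein, was far lower on the doxorubicin array than on the others. Its signal before normalization was 6159 untreated, 9193 with aclarubicin, 1315 with doxorubicin and 10824 with the drug pair. The doxorubicin array was thus the low one, below each of the other 3. On the normalized log2 scale the levels were 12.72, 12.94, 10.05 and 13.23 in the same order. The difference from untreated was -2.67 log2 after doxorubicin, 6.37-fold lower, and lay between -2.67 and -2.03 over 8 alternative ways of processing the signals. Among 8511 genes detected on both arrays, MT2A ranked 27 from the lowest by this difference. After aclarubicin MT2A differed by 0.21 and after the drug pair by 0.51, under the 2-fold threshold, but by 1.45 and 2.03 under median scaling over probes detected on all arrays.

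MT1X, another zinc-binding metallothionein and the gene at the far end of the cluster, followed the same order of arrays. Its signals were 1947 untreated, 2342 with aclarubicin, 1027 with doxorubicin and 3345 with the drug pair. The doxorubicin array was again lowest and the drug pair array highest. MT1X differed from untreated by 0.47 log2 with aclarubicin, -1.06 with doxorubicin and 1.10 with the drug pair. The difference after doxorubicin lay at the 2-fold threshold: it ranged from -1.06 to -0.82 over the 8 alternatives. The value with the drug pair was 0.79 without scaling, under the threshold, and that with aclarubicin was 1.14 under median scaling over probes detected on all arrays, past it. MT2A and MT1X did not differ by the same amount. On the doxorubicin array MT1X stood 1.61 log2 above MT2A relative to untreated cells, or 1.31 without scaling.

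MT1G, a metallothionein with a lower signal on these arrays, was detected in untreated cells and after both aclarubicin treatments but not after doxorubicin. Its signal was 127 untreated, 150 with aclarubicin, 60.7 with doxorubicin (detection p-value 0.0303) and 193 with the drug pair. It was 2.56-fold higher than untreated after aclarubicin (1.35 log2) and 4.18-fold higher after the drug pair (2.06 log2), and at least 2.22-fold lower after doxorubicin. Without scaling the differences after aclarubicin and the drug pair were 0.31 and 0.76 log2, under the 2-fold threshold, and after doxorubicin -1.65. The doxorubicin difference fell short of 2-fold with no background correction (-0.87) and with an offset of 50 (-0.80).

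MT1E, which encodes a further zinc-binding isoform, was detected only after the treatments that held aclarubicin, by 1 of its 2 probes. That probe gave 62.4 untreated, 170 with aclarubicin, 51.6 with doxorubicin and 216.5 with the drug pair. It was at least 5.59-fold higher than untreated after aclarubicin and at least 8.91-fold higher after the drug pair, taken against the lowest detected level of the untreated array. Both bounds hold for the processing used here. The probe's own values, below detection in untreated cells, differed by 1.96 to 4.33 log2 after aclarubicin over the 8 alternatives. After the drug pair they differed by 2.54 to 5.01. With doxorubicin the probe was detected on neither array compared and gets no fold. The other MT1E probe, at signals of 42.3 to 49.9, was detected on no array, so the probes disagree. MT1H, by its brighter probe, was highest after the drug pair at 61.7 (detection p-value 0.029), short of detection.

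SLC30A1 was far higher on the doxorubicin array, the direction opposite to MT2A, MT1X and MT1G. Its brighter probe gave 256 untreated, 147 with aclarubicin, 2497 with doxorubicin and 185 with the drug pair. The second probe gave 197, 131, 2002 and 165. By both probes the doxorubicin array stood far above each of the other 3. SLC30A1 was 15.1-fold higher after doxorubicin than in untreated cells by either probe (3.91 log2 each), and between 3.39 and 3.91 log2 higher over the 8 alternatives. It ranked 14 from the highest among 8511 genes detected on both arrays. After aclarubicin it differed by 0.19 log2 and after the drug pair by 0.87, but these spanned 0 over the 8 alternatives, from -0.98 to 0.30 and from -0.54 to 0.99. The second probe gave 1.11 after the drug pair, past the 2-fold threshold that the brighter one missed.

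MTF1, the zinc sensor, differed by less than 2-fold throughout. Its signal was 209 untreated, 161 with aclarubicin, 244 with doxorubicin and 158 with the drug pair, and no array stood apart. The log2 differences from untreated were 0.66 with aclarubicin, 0.14 with doxorubicin and 0.94 with the drug pair, none at 2-fold. Those for aclarubicin and the drug pair turned to -0.45 and -0.49 without scaling, while the doxorubicin value stayed between 0.11 and 0.27.

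**Figure D2:**
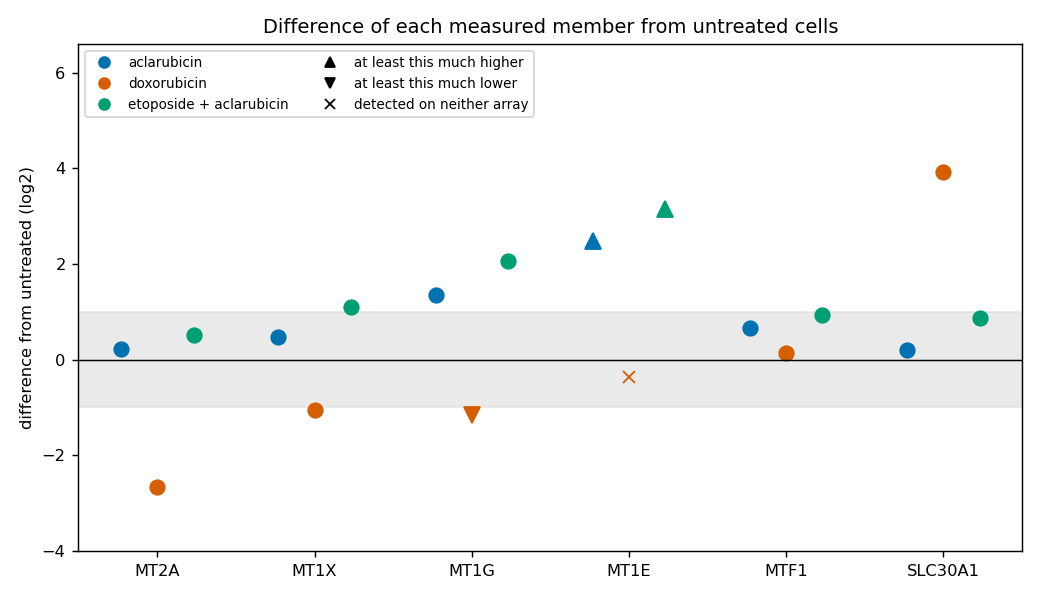
Log2 difference of each measured member from untreated cells (vertical axis) after aclarubicin, doxorubicin and the drug pair; the grey band marks less than 2-fold, triangles are bounds and a cross marks a gene detected on neither array. After doxorubicin MT2A lies at -2.67 and SLC30A1 at 3.91, while the aclarubicin arrays hold MT1G and MT1E above the band.

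Counted over the 6 measured members, 2 were at least 2-fold higher than untreated after aclarubicin (MT1E and MT1G) and 0 lower, against 15.1% of all 10077 genes higher and 15.2% lower. The median difference of the 6 was 0.56 log2, beside -0.05 for all genes. After doxorubicin 1 was higher (SLC30A1) and 3 lower (MT2A, MT1X and MT1G), against 11.6% and 10.2% of all genes, with medians of -0.72 and -0.00. The median of -0.72 includes MT1E, detected on neither array. With bounds in use and MT1E left out, as for the calls, it was -1.06, beside 0 for all genes. The 3 lower became 2 under 7 of the 8 alternatives: MT1G dropped out with no background correction and with an offset of 50, and MT1X under the other 5. After the drug pair 3 were higher (MT1E, MT1G and MT1X) and 0 lower, against 17.1% and 15.3%, with medians of 1.02 and -0.07. The 3 comparisons share the untreated array. The 3 members detected on no array are not in these counts.

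**Figure D3:**
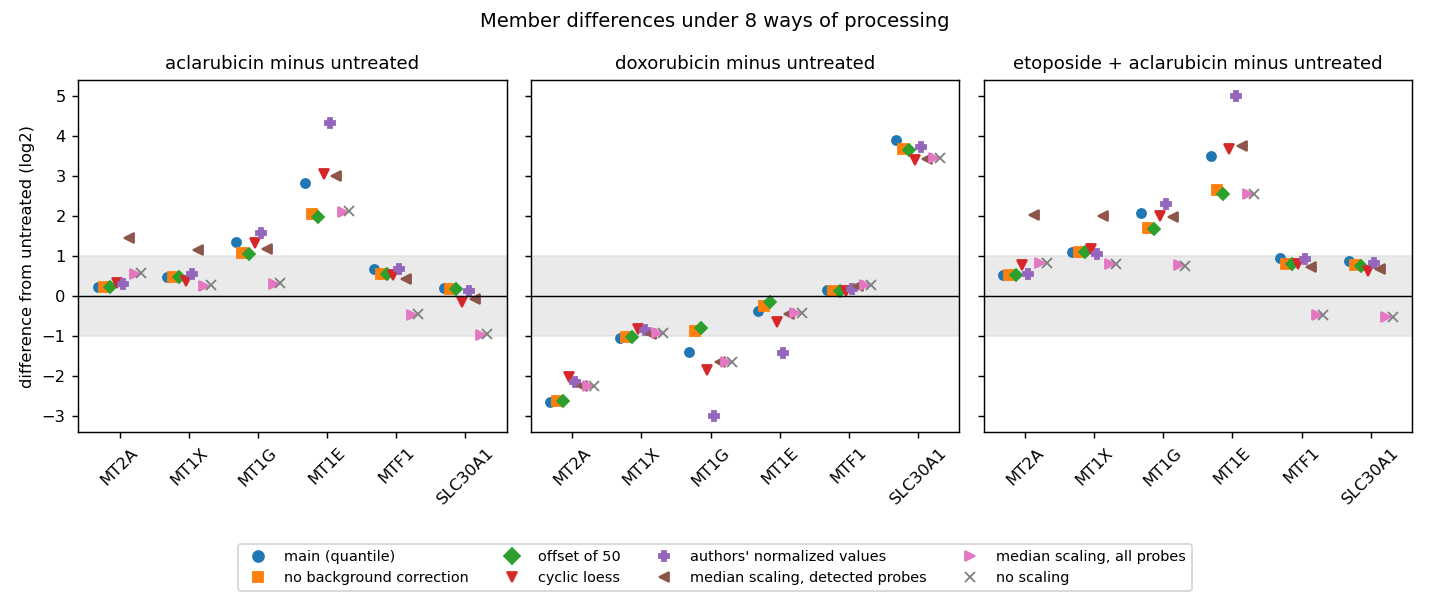
Log2 differences of the 6 measured members from untreated cells under 8 ways of processing, 1 panel per treatment. The doxorubicin values of SLC30A1 stay between 3.39 and 3.91 and those of MT2A between -2.67 and -2.03, while MTF1 and SLC30A1 cross 0 in the panels of aclarubicin and the drug pair.

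Aclarubicin and doxorubicin are both anthracyclines. Their doses were close but not equal, 10 and 9 µM, at the same exposure and time, so the values are given side by side. On the normalized scale MT2A stood at 12.94 after aclarubicin and 10.05 after doxorubicin, MT1X at 11.16 and 9.63, and SLC30A1 at 7.53 and 11.25. Doxorubicin minus aclarubicin was -2.89 log2 for MT2A, -1.53 for MT1X and 3.72 for SLC30A1, and MT1G and MT1E were at least 5.66-fold and 6.51-fold lower after doxorubicin. In all, 4 of 6 members were lower and 1 higher, against 18.1% and 17.6% of all genes. MTF1 differed by -0.52, or 0.72 without scaling. The direction for the other 5 was the same under all 9 ways of processing, the 8 alternatives and the one used here, with MT2A between -3.72 and -2.35 and SLC30A1 between 3.50 and 4.43.

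Etoposide together with aclarubicin was set against aclarubicin alone at the same aclarubicin dose. Few genes separated these arrays at 2-fold, 0.318% higher and 0.625% lower, and no member did so. Every measured member was higher with etoposide present: MT1G by 0.71 log2, SLC30A1 by 0.67, MT1E by 0.67, MT1X by 0.64, MT2A by 0.30 and MTF1 by 0.28, where the probe disagreement had an SD of 0.17. Of all 10077 genes, 4937 were higher by any amount and 5127 lower. At a threshold of 1.5-fold, 4 of the 6 were higher (MT1G, SLC30A1, MT1E and MT1X), against 3.22% of all genes higher and 3.84% lower. Those 4 ranked 144, 180, 183 and 219 from the highest among 6111 genes detected on both arrays. Without scaling they lay between 0.41 and 0.52 log2 and MTF1 at -0.03. Both probes of SLC30A1 gave the same order, 0.67 and 0.70. Against doxorubicin the drug pair gave 4 members higher and 1 lower, beside 18.0% and 16.8% of all genes: MT2A was 9.08-fold and MT1X 4.49-fold higher, and SLC30A1 8.26-fold lower.

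Other genes of zinc handling were read from lists. Of the remaining metallothioneins, 5 had probes and 1, MT3, the brain-type isoform, was detected, only after the drug pair, where it was at least 3.07-fold above the untreated array (signals 41.5, 61.2, 43.4 and 92.0 in the order untreated, aclarubicin, doxorubicin, drug pair). Of 9 zinc exporter genes related to SLC30A1, 5 were measured. None was 2-fold higher after doxorubicin and 1 was lower, against 11.6% and 10.2% of all genes. The lower gene was SLC30A7, a transporter of the secretory pathway, at -1.05 log2. SLC30A3, known from synaptic vesicles, was detected only after doxorubicin, at least 1.91-fold above untreated; its own values, below detection in untreated cells, differed by 1.49 log2. After aclarubicin and the drug pair 0 of the 5 passed 2-fold either way by the probe counted. Of all genes 15.1% and 17.1% were higher there, and 15.2% and 15.3% lower. The probes of SLC30A5 disagree. The one counted had levels of 9.40 untreated, 9.74 with aclarubicin and 9.65 with the drug pair. Another, also detected on all arrays, had 8.76, 7.58 and 7.34, a fall past 2-fold on both. The medians of the 5 were 0.15, 0.01 and 0.25 log2 for aclarubicin, doxorubicin and the drug pair, but -0.38 and -0.82 for aclarubicin and the drug pair without scaling.

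Zinc importer genes of the SLC39 family had 9 of 14 measured. After doxorubicin 2 were lower and 0 higher, against 10.2% and 11.6% of all genes: SLC39A11 at -3.16 log2 and SLC39A10 at -1.08. SLC39A10, a plasma membrane importer that zinc represses through MTF1, had signals of 245 untreated, 155 with aclarubicin, 137 with doxorubicin and 106 with the drug pair. The doxorubicin difference of SLC39A10 stayed between -1.42 and -0.82 over the 8 alternatives, whereas that after aclarubicin was 0.37 and turned to -0.78 without scaling. After aclarubicin and the drug pair 1 of 9 was higher each and 0 were lower. Of all genes 15.1% and 17.1% were higher there, and 15.2% and 15.3% lower. The higher gene was SLC39A8, an importer of zinc and manganese, at 1.38 and 1.45 log2. Without scaling SLC39A8 was at 0.56 and 0.29. The median of the importers was 0.46, -0.28 and 0.31 log2 for aclarubicin, doxorubicin and the drug pair, and -0.32 and -0.77 without scaling for aclarubicin and the drug pair.

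Genes reported as MTF1 targets besides the metallothioneins were split as well. Of 8 with probes 7 were measured, among them SLC39A10 again. After doxorubicin 2 were higher and 1 lower, against 11.6% and 10.2% of all genes. NDRG1, a stress-responsive gene also induced by hypoxia, was at least 7.95-fold higher than untreated, with signals of 64.2, 108, 471 and 123 in the order untreated, aclarubicin, doxorubicin, drug pair. PGF, the placental growth factor gene, was detected only after doxorubicin, at a signal of 280, and was at least 4.28-fold higher. After aclarubicin 3 were higher and 0 lower, against 15.1% and 15.2% of all genes. The 3 were NDRG1, at least 3.18-fold, and the selenoprotein genes SELENOW (1.65 log2) and SELENOH (1.64). Without scaling NDRG1's own values, below detection in untreated cells, differed by 1.20 log2. The combination gave the same 3 higher and 0 lower, against 17.1% and 15.3% of all genes. There NDRG1 was at least 4.70-fold higher, SELENOW was at 1.86 and SELENOH at 1.59. Without scaling SELENOH was at 0.77 and 0.44 for aclarubicin and the drug pair. GCLC, a glutathione synthesis gene, had signals of 243, 69.1, 366 and 67.1 in the same order and was below detection on both aclarubicin arrays; it was at least 1.91-fold and 1.60-fold lower there, bounds set by the detection floor that stay under the threshold. After doxorubicin SELENOW differed by -0.11 and SELENOH by -0.18. The list medians were 0.76, -0.08 and 0.56 log2.

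**Figure D4:**
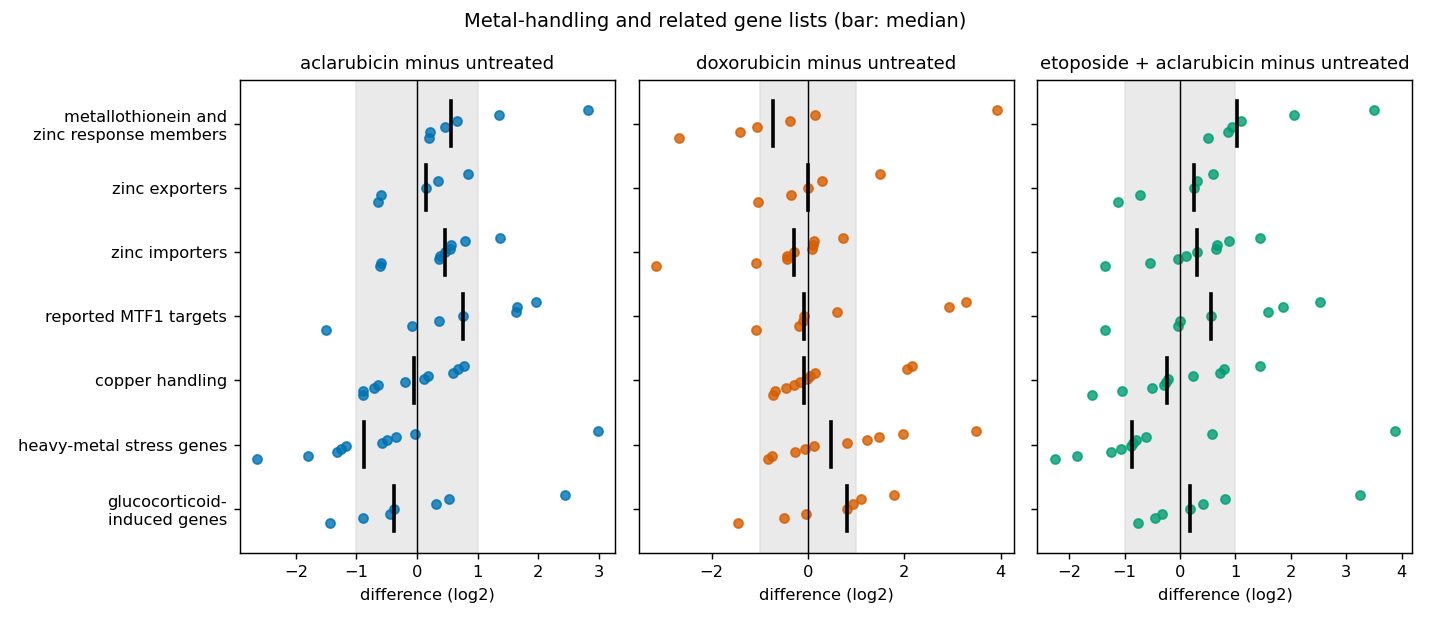
Log2 difference from untreated (horizontal axis) of each measured gene of 7 lists, with a bar at the list median and a grey band for less than 2-fold, 1 panel per treatment. Among the members, doxorubicin spreads the points from -2.67 to 3.91, and the aclarubicin and combination points all lie above 0. Of all 10077 genes, 4836 and 4761 lay above 0 there. Without scaling, MTF1 and SLC30A1 lay below 0 in both. Values below detection are drawn without a separate mark.

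The genes whose 3 differences from untreated lay nearest to those of a member, by Euclidean distance over 5946 other genes detected on all 4 arrays, were as follows. For MT2A they were ANTKMT, MRPL24 and NTHL1, at distances of 0.27, 0.27 and 0.41 log2 units. For MT1X they were DAB2, ANP32A and NACA4P, at 0.22, 0.24 and 0.25. For SLC30A1 they were CES2, RALGDS and MR1, at 0.54, 0.64 and 0.70. None of these nearest genes was in the lists of zinc genes. With only 3 taken per member out of 5946, that absence says little about the lists.

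As the arrays were made from bulk cells, fewer cells of a kind and less RNA per cell cannot be told apart. The melanoma label was checked against markers. Of 8 melanocyte and melanoma markers with probes, 5 were measured, MITF, SOX10, PMEL, TYRP1 and S100A1, while MLANA, TYR and S100B were detected on no array. The melanocyte list summed to a level of 3680 untreated, 3880 with aclarubicin, 1830 with doxorubicin and 3560 with the drug pair, and its genes did not move together. TYRP1, a pigment enzyme gene, differed from untreated by -2.67 log2 after doxorubicin, where PMEL, a melanosome gene, differed by 1.02 and S100A1 by 0.61. SOX10, a lineage factor gene, differed by -3.23 after aclarubicin and -3.53 after the drug pair. MITF, another, differed by -3.07 and -2.00 by its probe of highest mean level, with values below detection on those arrays. A further MITF probe had levels of 5.97, 6.42 and 6.28 for untreated, aclarubicin and the drug pair, at signals of 109, 85.9 and 74.0. That probe was below detection with the drug pair only, so the MITF probes disagree. Among markers of other cell types, the monocyte gene CD14 was the measured 1 of 3 leukocyte markers, and the leukocyte list summed to a level of 27.1 untreated, 499 with aclarubicin, 35.3 with doxorubicin and 526 with the drug pair, high on the arrays where MT1E and MT1G were high; the pan-leukocyte gene PTPRC was detected on no array. Endothelial markers summed to 67.2, 106, 173 and 136, fibroblast markers to 74.0, 142, 69.1 and 167, and keratinocyte markers to 427, 234, 304 and 350, with 2 of 3, 2 of 5 and 1 of 4 measured. The part of these genes, and of the breadth of detection, in the results was not tested.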

How the data were processed

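Total RNA was labelled with biotin and hybridised to 1-colour Illumina beadchips, 1 array per group; groups follow the treatment in the labels. The deposited intensity table is not normalized and pairs each signal with a detection p-value, per the file headers. The authors also deposited normalized values that resemble log2 values for bright probes; lumi is named in the submitters' processing notes, with no method given. These had the same rank order as the signals within each array (Spearman's rho of 1), so their scale and centring stay unknown and they served as an alternative. Their medians were 2.28, 2.18, 2.30 and 2.12 for untreated, aclarubicin, doxorubicin and the drug pair, and the series' value table held the same numbers.

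Signals were background-corrected by normexp in limma 3.58.1 (R 4.3.3), with negative controls inferred from detection p-values and an offset of 16, then quantile-normalized and taken to log2. Python 3.11.15 with numpy 2.4.6 and pandas 2.3.3 did the rest. Of 48803 probes, 27578 carried 1 gene symbol, 13 several, and 21212 were unnamed here. Genes detected on at least 1 array numbered 10077, each represented by its detected probe of highest mean level. A gene detected on 1 of 2 arrays got a bound: the dim array was set to its lowest detected level, or to the probe's own value if that was higher, and calls at 2-fold used these bounds; the lowest detected level was 5.29, 6.31, 5.07 and 6.57 log2 in the order above, so falls were harder to call on the aclarubicin arrays. Bounds hold for the processing used here and can be smaller under the alternatives. Medians of members and lists took measured differences, including values below detection. The number of arrays limits the precision. Calling was tested on simulated data in which every gene was detected. That checks the code and does not measure the error of calls on these arrays.

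Named genes are all members, and from each list the 2 highest and 2 lowest measured genes of a comparison with untreated, of which those past 2-fold or with a bearing on the members are described. Further genes that complete a count of 5 or fewer, and marker genes, were named after their values were seen. Members and lists were chosen with earlier results of these data known. Alternatives changed background correction, normalization, probe summary, detection filter and threshold.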

Additional observations from a re-analysis of the deposited data

How the results depend on the processing

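Sensitivity was judged for the median of the measured members and for the counts at 2-fold in 6 comparisons, a median being called moved when it changed by more than the probe disagreement and a count when it changed by more than 1.5 times. Under the alternatives 193 such values lay within these limits and 29 moved, and no median or member past 2-fold turned sign. Median scaling over all probes gave 1 member higher after aclarubicin and 1 after the drug pair (main 2 and 3), where 2.09% and 2.37% of all genes were higher (main 15.1% and 17.1%), and medians of -1.56 for doxorubicin minus aclarubicin (main -2.14) and 0.45 for drug pair minus aclarubicin (main 0.65). No scaling gave the same counts of 1 and 1, with 2.28% and 2.31% of all genes higher, and medians of 0.42 for drug pair minus aclarubicin and 2.07 for drug pair minus doxorubicin (main 2.68). Median scaling over probes detected on all arrays, chosen after seeing the data, gave 4 members higher after aclarubicin, with 20.4% of all genes higher, and medians of 1.16 for aclarubicin, 1.99 for the drug pair and 3.30 for drug pair minus doxorubicin (main 0.56, 1.02 and 2.68). The authors' normalized table gave -1.14 for doxorubicin minus untreated (main -0.72). Both of these medians include MT1E, below detection on both arrays. Members detected on all 4 arrays, which leaves 4 genes, gave 0 higher after aclarubicin, 1 after the drug pair, 2 lower for doxorubicin against aclarubicin (main 4) and 2 higher for the drug pair against doxorubicin (main 4), with medians of -1.03, 0.47 and 1.48 for doxorubicin minus aclarubicin, drug pair minus aclarubicin and drug pair minus doxorubicin. Detection p under 0.05 added MT1H and gave -0.37 for doxorubicin minus untreated and -1.53 for doxorubicin minus aclarubicin. No detection filter, which adds the 3 undetected members, gave -0.14, -0.52 and 1.02 for doxorubicin minus untreated, doxorubicin minus aclarubicin and drug pair minus doxorubicin. At 1.5-fold 5 members were higher after the drug pair. For drug pair against aclarubicin 4 were, against 3.22% of all genes. At 3-fold 1 was higher after aclarubicin and 1 lower after doxorubicin. Shares of all genes were not computed for the 1.5-fold and 3-fold counts against untreated. Nor were they computed over genes detected on all 4 arrays. Those counts therefore cannot be read as unusual. The cause of the changes with scaling was not tested; the filter changes follow from the number of members kept. Among single members 104 alternative values of a difference from untreated lay within the probe disagreement and 40 did not. No paired analysis was possible because each group has 1 array. Dim members are limited by signal over background.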

Other observations

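Copper handling genes, all 10 of them measured, had 2 members at least 2-fold higher after doxorubicin and 0 lower, against 11.6% and 10.2% of all genes, with a list median of -0.09 log2. CCS, the copper chaperone for superoxide dismutase, was 4.44-fold higher (2.15 log2), and its other 2 probes gave signals of 68.8, 72.1, 208 and 75.5, and of 117, 81.5, 433 and 104, in the order untreated, aclarubicin, doxorubicin, drug pair. SLC31A2, a transporter that moves copper out of endosomes, was 4.15-fold higher after doxorubicin (2.05 log2) and differed by -0.89 after aclarubicin. ATOX1, another copper chaperone gene, differed by 0.67 with aclarubicin, -0.28 with doxorubicin and 0.79 with the drug pair.

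Heavy-metal stress genes outside MTF1 control had 4 of 10 higher and 0 lower after doxorubicin, beside the same shares of all genes: HMOX1, heme oxygenase, at least 10.2-fold, HSPA6 at least 2.47-fold, HSPA1B 2.79-fold and HSPA1A 2.35-fold, although HSPA1A was under 2-fold without scaling (0.97 log2). After aclarubicin, where 15.1% of all genes were higher and 15.2% lower, 1 was higher, HSPA6 at least 4.99-fold, and 5 were lower, DNAJB1 at -2.65 log2, SRXN1 at -1.80, HSPA1B at -1.33, GCLM at -1.26 and BAG3 at -1.17, with a list median of -0.87; under median scaling over probes detected on all arrays HSPA1B was at -0.84 and BAG3 at -0.95. The probes of GCLM disagree: its other probe, detected on all arrays, had levels of 5.93 untreated and 7.23 with aclarubicin, the opposite direction. Of glucocorticoid-induced genes 7 of 9 were measured. After aclarubicin 1 was higher and 1 lower, against 15.1% and 15.2% of all genes. Doxorubicin gave 2 higher and 1 lower, against 11.6% and 10.2%. The drug pair gave 1 higher and 0 lower, against 17.1% and 15.3%. TSC22D3, a leucine zipper gene strongly induced by glucocorticoids, was 5.45-fold higher with aclarubicin, 2.14-fold with doxorubicin and 9.48-fold with the drug pair. Its untreated signal was 79.5, close to the detection limit, and without scaling it differed by 1.60 log2 after aclarubicin. Some other TSC22D3 probes were detected on no array. DUSP1, a phosphatase gene, was 3.42-fold higher after doxorubicin and differed by 0.53 and 0.82 log2 after aclarubicin and the drug pair, or -0.56 and -0.53 without scaling. KLF9 differed by -1.44, -1.45 and -0.75 for aclarubicin, doxorubicin and the drug pair, and by -2.51, -1.33 and -2.03 without scaling.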
